A study of Mus musculus with 31 samples.

Results

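The H19, Meg3 intergenic and Rasgrf1 regions, which carry methylation on the paternal allele, were followed through mouse oocyte growth. Their CpG sites were taken by position on mm9: chromosome 7, 149761000 to 149769000 for H19; chromosome 12, 110763500 to 110769000 for the Meg3 intergenic region; and chromosome 9, 89767000 to 89780000 for Rasgrf1. Of 1419929 sites listed in any library, 11 lay in the H19 window, and no site was listed in the other 2 windows in any library. The nearest listed site of the Meg3 window lay 9312 bp above it (1 library), and that of the Rasgrf1 window 659 bp above it (6 libraries). So the measurements below are of 1 of the 3 loci, H19, with a stretch at the start of the Meg3 gene added after the data were seen.

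The oocytes came from B6D2F1 mice, the cross of C57BL/6 with DBA/2, and were profiled by reduced representation bisulfite sequencing (RRBS). RRBS cuts DNA with MspI at CCGG and reads methylated cytosine as C and unmethylated cytosine as T. There were 31 libraries from 9 stages: Type1 and Type2 (primordial follicles), Type3a and Type3b (primary), Type4, Type5a and Type5b (secondary), and Type6 and Type7 (antral). Each stage had 3 libraries, except Type4 and Type5a with 5, and the labels name no treatment, age or number of oocytes.

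At an imprinted locus, a differentially methylated region is methylated on the chromosome from one parent and not on that from the other, and this mark decides which copy of nearby genes is used. Most such marks are laid down in the oocyte; the H19, Meg3 and Rasgrf1 regions belong to the few that are laid down in sperm, and in oocytes they are known to be unmethylated. H19 is a long non-coding RNA made from the maternal copy, whose control region binds CTCF when unmethylated and keeps an enhancer away from Igf2, a growth factor; Meg3 is a maternally expressed long non-coding RNA next to Dlk1; and Rasgrf1, an exchange factor for Ras, is expressed in neonatal brain from the paternal copy.

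The Meg3 gene start is shown because it was the nearest stretch to a missing window that most libraries covered. The sequence is RefSeq's Meg3 promoter (GRCm38.p6, plus strand, 250 bases before to 50 after the gene's start); capitals mark the 7 CpGs with at least 5 reads in at least 10 libraries.
Meg3: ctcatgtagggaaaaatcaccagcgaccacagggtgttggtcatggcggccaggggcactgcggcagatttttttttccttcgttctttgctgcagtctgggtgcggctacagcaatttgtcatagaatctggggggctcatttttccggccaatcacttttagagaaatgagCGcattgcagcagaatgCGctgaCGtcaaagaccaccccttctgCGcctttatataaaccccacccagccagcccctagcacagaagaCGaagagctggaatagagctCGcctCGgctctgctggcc
It was placed on mm9 by the spacing of its 13 CpGs, at chromosome 12, 110778956 to 110779255, where 12 of 12 listed sites and 12 of 12 local sequences equalled it. This stretch lies outside the Meg3 intergenic window and is not the imprint control region. RefSeq's Rasgrf1 promoter could not be placed this way, since 0 of 67 local sequences equalled it.

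A library held 7949652 to 60361665 reads over its sites, but few fell in H19. At least 1 H19 site was listed in 27 of 31 libraries, 24 had a site with at least 5 reads, and 17 had at least 50 reads summed over such sites (56 to 831, median 71). Reads are summed over sites of the same fragments, so they count more than the molecules behind them, and PCR copies could not be removed; the exact binomial intervals below cover counting error only. The X measure, the mean level of CpG-dense X tiles minus that of CpG-dense autosomal tiles (100-bp tiles with at least 60 listed sites per kb), varied within stages. It was above 0 in 9 libraries, up to 10.6 points in Type4 replicate 2.

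The 11 H19 sites formed 3 stretches. The first, 149761700 to 149761768, held 3 sites and 79.0% of the H19 reads, from 22 libraries with at least 5 reads. The second, 149764673 to 149764880, held 5 sites and was read at that depth in 3 libraries, and the third, 149767092 to 149767291, held 3 sites read in 9. With no mm9 gene annotation used here, it was not determined which stretches lie in the H19 gene and which in its control region. The H19 level of a library, the share of methylated reads over all sites with at least 5 reads, is therefore mainly a value of the first stretch.

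The H19 level, mainly a value of the first stretch, was mostly low, with a wide spread between libraries of the same stage. Summed over libraries, 7.19% of 1948 reads were methylated in the first stretch, at sites with at least 5 reads. The share was 3.25% of 338 reads in the second stretch and 26.0% of 181 in the third. Of the 47 methylated reads in the third, 22 came from Type5a replicate 6. Over the 17 libraries with at least 50 reads, the level ranged from 0 to 39.4%, with a median of 7.79% and a mean of 9.53% ± 11.3 (SD, n = 17). It was 0 in 5 libraries and above 10% in 6. In primordial follicles it was 3.35 and 0% in Type1 replicates 1 and 3 and 0% in Type2 replicate 1. In primary follicles it was 8.57% in Type3a replicate 2 and 12.6% in Type3b replicate 1. Among libraries with at least 50 reads, the primordial ones thus lay below the primary ones, but Type1 replicate 2 (primordial) was at 20% on 15 reads. The 0% of Type1 replicate 3 leaves out its methylated reads in the third stretch, where its sites had under 5 reads.

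In secondary follicles, Type4 replicates 1, 4 and 5 had H19 levels of 11.7, 0 and 39.4%. Type5a replicates 4, 5, 6 and 7 had 0, 7.79, 3.01 and 14.4%, and Type5b replicate 3 had 9.23%. Type4 thus spanned the whole range of the series. In antral follicles, Type6 replicates 1, 2 and 3 had 24.3, 26.3 and 1.33%, and Type7 replicate 2 had 0%. Type6 therefore held both high libraries and a low one, and the only Type7 library with enough reads had no methylated read. Without the minimum of 50 reads, 9 of 24 libraries were above 10%, among them Type4 replicate 2 at 70% on 10 reads.

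**Figure D1:**
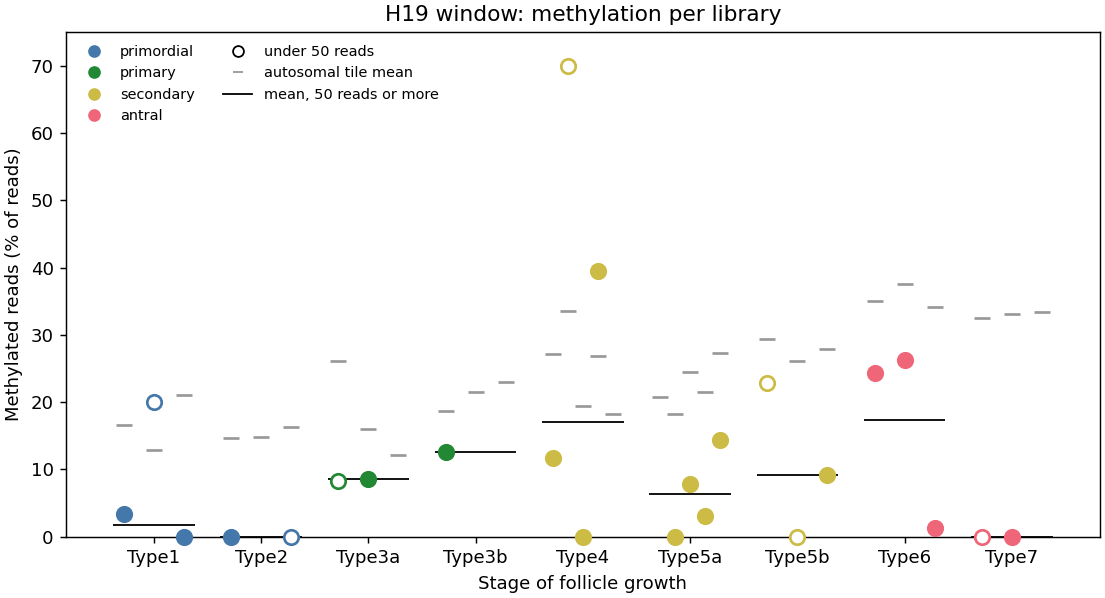
H19 methylation level (percent of reads methylated, y axis) per library in the 9 stages (x axis). Filled points have at least 50 reads and open points fewer, black lines are stage means over filled points, and grey dashes are each library's mean over autosomal tiles; Type4 replicate 5 at 39.4% is the only filled point above its own dash.

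No difference in H19 between follicle classes passed its test. The mean was 1.12% ± 1.94 (SD, n = 3) in primordial, 10.6% ± 2.87 (n = 2) in primary, 10.7% ± 12.8 (n = 8) in secondary and 13% ± 14.3 (n = 4) in antral follicles. Antral minus primordial was 11.9 points (two-sided exact permutation p = 0.343, adjusted 0.887). Primary minus primordial was 9.48 points with no overlap (exact permutation p = 0.1, the smallest this design allows, adjusted 0.8); with no minimum of reads the classes overlapped and the difference was 5.17 (exact permutation p = 0.357, adjusted 0.857). Secondary minus primary was 0.0948 points (exact permutation p = 1) and antral minus secondary 2.30 (exact permutation p = 0.776, adjusted 0.887). The p-values were adjusted by Benjamini-Hochberg over 8 tests, 4 each for H19 and the Meg3 start. Since the labels do not tell whether each library is a different animal, these p-values reflect the spread from library to library, which may be technical. Without the libraries of X measure above 0, antral minus primordial turned to -1.01 points (exact permutation, adjusted p = 1). Type2, Type3a, Type3b, Type5b and Type7 each held 1 H19 library. Such stages raise the share of variance held by stages even where stages do not differ. The 9 stages held 34.7% of the variance of the H19 level (permutation of stage labels over 17 libraries, p = 0.748), and 53.9% without Type4 replicate 4 (permutation, adjusted p = 0.469).

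The H19 level lay below the same library's autosomal level in 16 of 17 libraries. The mean difference was -15.2 points ± 10.2 (SD, n = 17; sign-flip permutation p = 0.00011, adjusted 0.00022 over 4 such comparisons, which were added after the data were seen). Type4 replicate 5 was the exception. Within the antral and primordial libraries measured at H19, the autosomal level rose by 17.5 points from primordial to antral. The gap between H19 and the autosomes was -16.4 points ± 4.13 (n = 3) in primordial and -22.0 ± 12.7 (n = 4) in antral libraries, a difference of -5.60 (exact permutation p = 0.486) that ran from -9.36 to -1.91 without single libraries. Against listed sites within 50 kb on either side of the window, H19 was 4.78 points higher (9.53 against 4.75%, n = 17), which did not pass (permutation p = 0.0985, adjusted 0.131).

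At single sites, methylated reads in the first stretch were found either at all 3 sites alike or at some of them only. Of the 25 libraries in which it was listed, 10 had no methylated read, 7 had methylated reads at every site and 8 at some sites. These counts have no minimum of reads, and Type3a replicate 4 and Type7 replicate 1, with none methylated, had 3 reads per site. Counting only sites with at least 5 reads, 15 of 22 libraries had a methylated read. The first of the 3 sites lies in an MspI cutting sequence, CCGG, and the others do not; nearly all reads (1982 of 1984) came from the plus strand. Summed over libraries they had similar levels of 6.65, 9.06 and 6.41%, from 647, 651 and 686 reads. The libraries behind these sums differed from site to site.

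In 3 libraries the site in the cutting sequence had no methylated read while its neighbours had many. Type4 replicate 5 had 0 of 16 methylated reads at the first site, 13 of 16 at the second (81.2%, 95% exact interval 54.4 to 96.0) and 12 of 14 at the third (85.7%, 57.2 to 98.2). Type6 replicate 1 had 0 of 40, 10 of 41 (24.4%, 12.4 to 40.3) and 10 of 44 (22.7%, 11.5 to 37.8). Type6 replicate 2 had 0 of 18, 7 of 19 (36.8%, 16.3 to 61.6) and 8 of 20 (40%, 19.1 to 63.9). The 3 highest H19 levels among libraries with at least 50 reads thus came with the same pattern over the sites.

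The opposite order also occurred. Type4 replicate 1 had 7 of 20 methylated reads at the first site and 0 of 20 at each of the others. Type3b replicate 1 had 15 of 54, 10 of 53 and 0 of 55. In Type4 replicate 1 the methylated reads thus lay only at the site that had none in Type4 replicate 5. In Type3b replicate 1 they lay at the first and second sites and not at the third. The same held in Type3a replicate 2 (3 of 24, 3 of 24 and 0 of 22) and Type5a replicate 5 (3 of 25, 3 of 26 and 0 of 26). By contrast, Type5a replicate 7 had 3 of 26, 3 of 26 and 4 of 30, nearly even over the sites. The deepest library, Type5a replicate 6, had 1 methylated read of 163, 165 and 174 (0.575% at the third site, 0.0145 to 3.16).

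**Figure D2:**
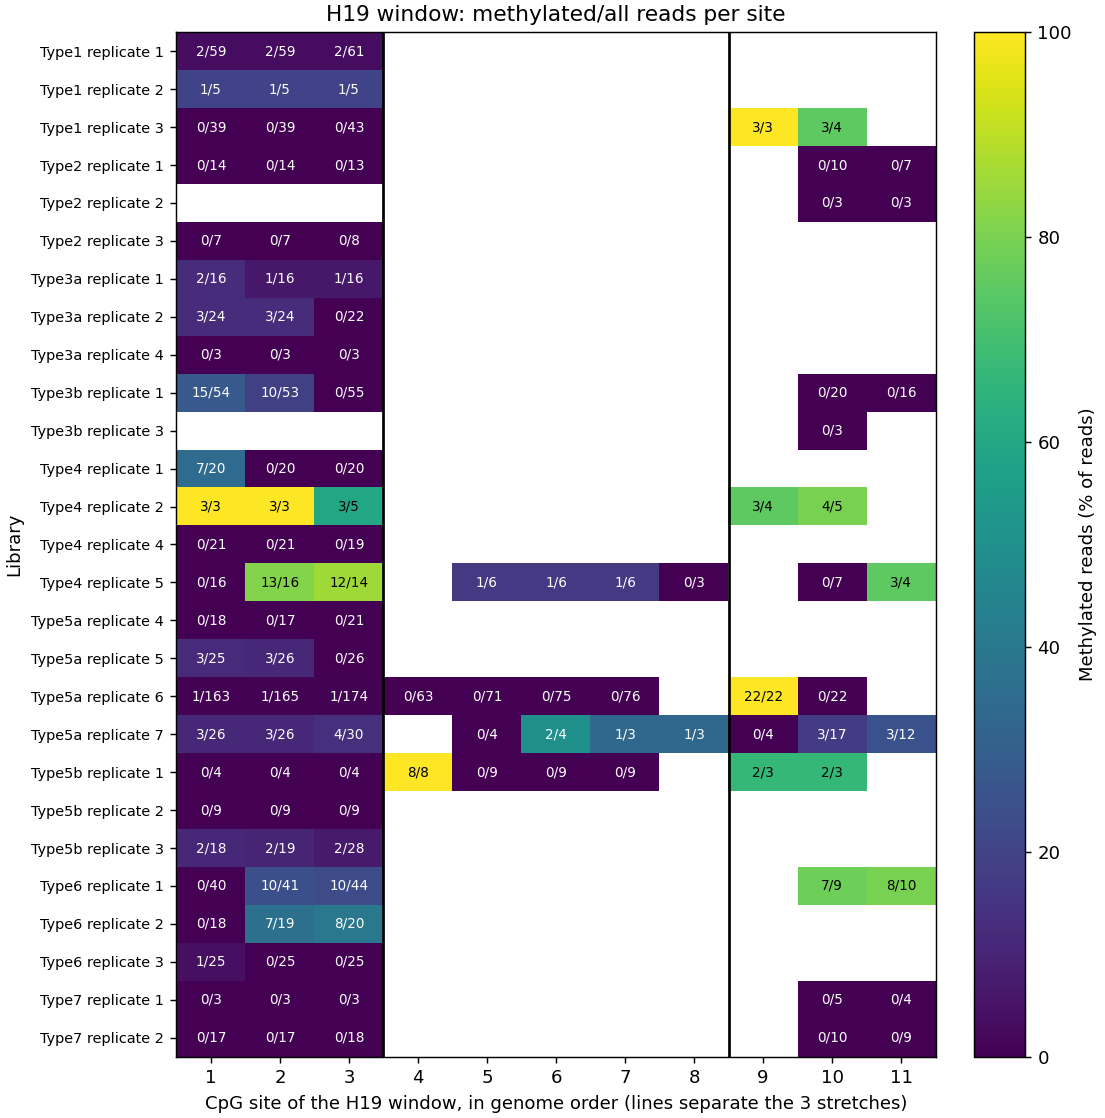
Methylated reads over all reads at the 11 H19 sites (x axis, in genome order, black lines between the 3 stretches) in the 27 libraries with a listed site (y axis), coloured by percent methylated; white cells are not listed. Type4 replicate 5 and Type6 replicates 1 and 2 are at 0 at site 1 and methylated at sites 2 and 3.

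In the third stretch, levels ran from 0 to full methylation. It held a methylated read in 7 of the 13 libraries in which it was listed, and in 4 of the 9 with at least 5 reads at a site. Its most covered site, 149767135, had at least 5 reads in 9 libraries and was at 0 in 6 of them: Type2 replicate 1 (0 of 10), Type3b replicate 1 (0 of 20), Type4 replicate 5 (0 of 7), Type5a replicate 6 (0 of 22) and Type7 replicates 1 and 2 (0 of 5 and 0 of 10). Taking 3 reads as the most that a count of 0 allows, 0 of 22 leaves room for 13.6% and 0 of 10 for 30%. Type6 replicate 1 had 7 of 9 reads methylated there (77.8%, 39.99 to 97.2) and 8 of 10 at 149767291 (80%, 44.4 to 97.5). At 149767135, Type4 replicate 2 had 4 of 5 and Type5a replicate 7 had 3 of 17 (17.6%, 3.80 to 43.4). With under 5 reads at that site, Type1 replicate 3 had 3 of 4 and Type5b replicate 1 had 2 of 3. Type2 replicate 2 and Type3b replicate 3 each had 0 of 3. At 149767291 Type4 replicate 5 had 3 of 4 and Type5a replicate 7 had 3 of 12. At 149767092, in CCGG, Type5a replicate 6 had 22 of 22 methylated reads (84.6 to 100%), beside 0 of 22 at the next site.

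The second stretch was read in 4 libraries, and mainly in Type5a replicate 6. Its site with most reads, 149764766, had 3 methylated reads of 94 (3.19%), but 3 of 19 (15.8%) without Type5a replicate 6: 1 of 6 in Type4 replicate 5, 2 of 4 in Type5a replicate 7 and 0 of 9 in Type5b replicate 1. Type5a replicate 6 had none at 4 sites of 63 to 76 reads each. The site in the cutting sequence, 149764673, again stood apart in 1 library: Type5b replicate 1 had 8 of 8 methylated there (63.1 to 100%) and 0 of 9 at each of the next 3 sites.

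Libraries high at H19 were often those with a high X measure. Libraries of X measure above 0 also had the highest autosomal levels of their stages. In Type4 the autosomal level was 27.2, 33.5 and 26.8% in replicates 1, 2 and 5, against 19.5 and 18.3% in replicates 4 and 6. In Type6 the autosomal level was 35.0 and 37.6% in replicates 1 and 2, against 34.1% in replicate 3. Of the 17 libraries with at least 50 reads, 7 had an X measure above 0, and 5 of these were above 10% at H19, against 1 of the 10 others. The X measure was 9.94 points in Type4 replicate 5, 6.75 in Type4 replicate 1, 3.23 in Type5a replicate 7, and 1.04 and 1.31 in Type6 replicates 1 and 2. It was -3.37 and -4.02 in Type4 replicate 4 and Type6 replicate 3, the low H19 libraries of their stages. Type1 replicate 3, at 1.09, had an H19 level of 0, which is of the first stretch alone. Its 2 listed sites of the third stretch had under 5 reads, and most were methylated (3 of 3 at 149767092 and 3 of 4 at 149767135).

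As deviations from the stage mean, H19 and the X measure had Pearson's r = 0.855 (12 libraries of 4 stages, permutation p = 0.00712, adjusted 0.0214 over 3 relations) and Spearman's rho = 0.790 (p = 0.0279, adjusted 0.0837). Without Type4 replicate 4 and Type6 replicate 3, whose X deviations lay farthest from the median deviation, r was 0.752, and without Type4 replicate 5 alone it was 0.81 (permutation, adjusted p = 0.0315). The call of r did not hold with no minimum of reads per library (r = 0.64, permutation, adjusted p = 0.227) or with sites weighted equally (r = 0.74, permutation, adjusted p = 0.0808), nor without any of Type5a replicates 4, 6 and 7 and Type6 replicates 1, 2 and 3 (r = 0.85 to 0.86, permutation, adjusted p = 0.0501 to 0.19). The parts of the X measure and of the autosomal level in the H19 levels were not tested.

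**Figure D3:**
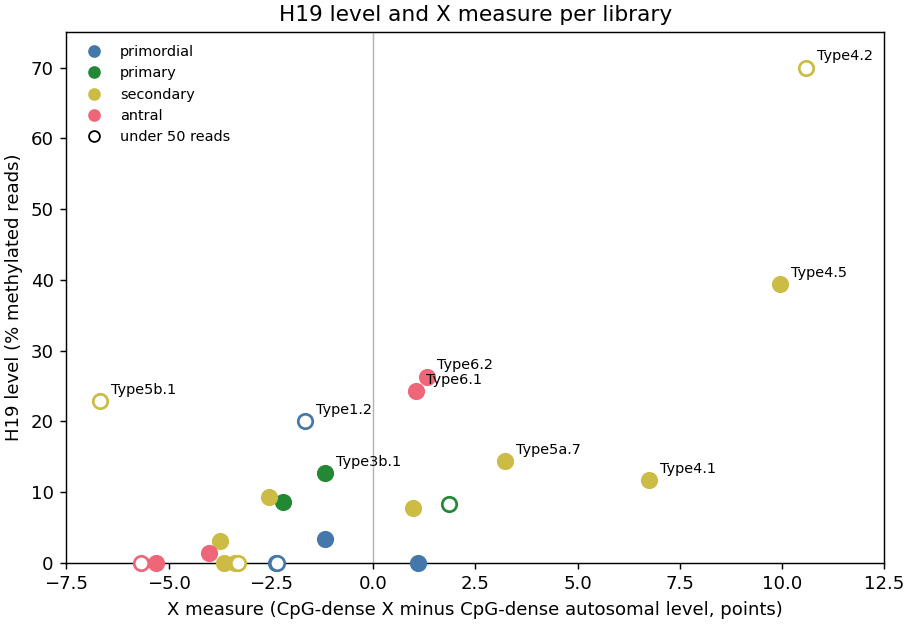
H19 level (percent of reads methylated, y axis) against the X measure (percentage points, x axis) in 24 libraries coloured by follicle class; open points have under 50 reads and libraries above 10% are named. Among filled points above 10%, Type3b replicate 1 at 12.6% is the only one with an X measure below 0.

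By the likeness of their levels over libraries, the autosomal tiles nearest to H19 were chromosome 15, 98724701 to 98724800 (r = 0.92 over 16 libraries) and chromosome 13, 53242001 to 53242100 (r = 0.92). On X they were 7525201 to 7525300 (r = 0.90 over 15 libraries) and 88021001 to 88021100 (r = 0.88). They are the extremes of 39034 autosomal tiles, whose median r was 0.22, and of 2127 X tiles, whose median was 0.31, and are given as a description. Each r is over the same libraries, so depth and X measure enter both values.

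The start of Meg3 had no methylated read in most libraries. Of 22 libraries with at least 50 reads there (54 to 646, median 181), 12 were at 0, the median was 0 and the mean 6.11% ± 10.9 (SD, n = 22). It was above 10% in 5: Type2 replicate 3 (36.3%), Type4 replicates 1, 2 and 6 (35.3, 13 and 15.5%) and Type6 replicate 3 (14.2%). Of these, only Type4 replicate 1 and Type6 replicate 3 had at least 50 reads at H19, and Type4 replicate 1 was above 10% there. Type2 replicate 3 had 22 H19 reads (level 0), Type4 replicate 2 had 10 (70%) and Type4 replicate 6 had 0. Type6 replicates 1 and 3, at 24.3 and 1.33% in H19, were at 0 and 14.2% here, the other way round. Type4 replicate 5, at 0 here, had 4 to 7 reads at each of the 7 marked CpGs. It reached 50 reads only through CpGs at bases 47 to 148 of the printed sequence, with 9 reads each. No other library had at least 5 reads at those CpGs.

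**Figure D4:**
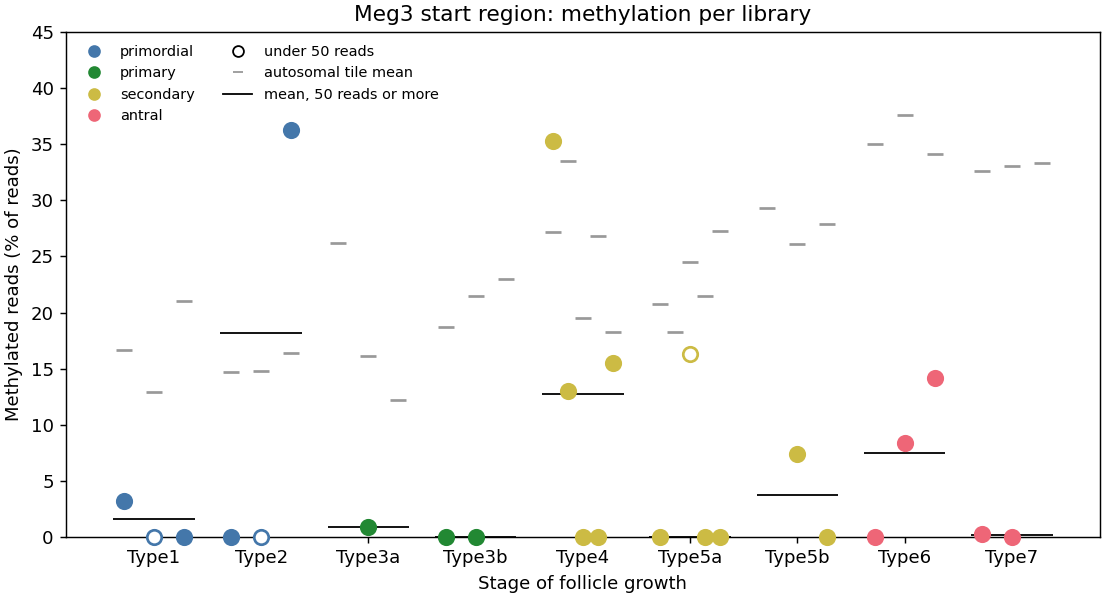
Methylation at the Meg3 start (percent of reads methylated, y axis) per library in the 9 stages (x axis), with symbols as in the plot of H19 by stage. Type2 replicate 3 at 36.3% and Type4 replicate 1 at 35.3% lie above the autosomal mean of their library, and 12 of 22 filled points are at 0.

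Methylated reads at the Meg3 start lay at all CpGs or at single ones. In 5 libraries every one of the 7 CpGs was methylated to a like extent: 33.3 to 39.1% in Type4 replicate 1, 28.6 to 50% in Type2 replicate 3, 11.9 to 15.4% in Type6 replicate 3, 7.84 to 8.70% in Type6 replicate 2 and 10 to 16.7% in Type4 replicate 2. Type4 replicate 2 had 1 methylated read at each CpG, of 6 to 10 reads, as 1 molecule counted at all 7 would give. Type6 replicate 2 had 4 at each CpG, of 46 to 51 reads. In 7 libraries only some CpGs were. Type4 replicate 6 had 11 of 11 methylated reads at base 191 of the printed sequence (71.5 to 100%) and none at the other 6, and Type1 replicate 1 had 13 at base 197 alone. The remaining 16 of 28 libraries had none, some of them on few reads (3 per site in Type3b replicate 3, 4 to 6 in Type2 replicate 2).

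Follicle classes did not differ at the Meg3 start beyond the spread of libraries. The level was 9.85% ± 17.7 (SD, n = 4) in primordial, 0.302% ± 0.522 (n = 3) in primary, 7.12% ± 11.6 (n = 10) in secondary and 4.56% ± 6.46 (n = 5) in antral follicles, and no contrast had an adjusted p below 0.887 (permutation tests). Stages held 34.3% of the variance (permutation p = 0.513, adjusted 0.748), and 60.1% without Type2 replicate 1 (permutation, adjusted p = 0.228). With few libraries per stage, such a share is raised even where stages do not differ. The start lay below the autosomal level in 20 of 22 libraries, by 18.7 points on average (6.11 against 24.8%; permutation p = 2e-05, adjusted 8e-05). The gap was -7.35 points in primordial and -29.9 in antral libraries, a difference of -22.6 (exact permutation p = 0.0159, adjusted 0.0317), while the autosomes of the same libraries rose by 17.3. That call was lost without any of Type1 replicate 1, Type2 replicates 1 and 3, Type6 replicates 1 to 3 and Type7 replicates 1 and 2, and without Type2 replicate 3 the difference was -13.5 (exact permutation, adjusted p = 0.107). The Meg3 start showed no relation with the X measure that passed (r = 0.05, 21 libraries, permutation p = 0.911; rho = -0.14, p = 0.589; r = -0.19 without Type4 replicates 2 and 4), nor with H19 (r = -0.31, 10 libraries, permutation p = 0.779; rho = -0.22, p = 0.721; r = -0.84 without Type4 replicates 1 and 4). In the 15 libraries measured at both, H19 was 6.16 points higher (10.3 against 4.13%; permutation p = 0.137).

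In the fit of all 100-bp tiles, a tile needed at least 3 sites with at least 5 reads, and no H19 tile met this in enough libraries. Of 58522 tiles tested from Type1 to Type7, 17.9% were called higher and 0.161% lower; from Type5a to Type5b the shares of 65397 were 5.14 and 0.182%. Neither of the 2 tiles that overlap the Meg3 start was called in either comparison by the quasi-binomial model. The tile 110779101 to 110779200 went from 2.75 to 0.243% from Type1 to Type7 (quasi-binomial model, adjusted p = 0.753) and from 6.48 to 7.5% from Type5a to Type5b (adjusted p = 0.916). The tile 110779201 to 110779300 also holds a site beyond the printed sequence, 110779280, and in these 4 stages that site had all of the tile's methylated reads (18 of 70 reads in Type7 and 1 of 103 in Type1), while the 3 CpGs of the printed sequence had none. Its levels therefore say nothing on those CpGs and are not given. With 2 sites allowed per tile, the H19 tile 149761701 to 149761800 could be tested from Type5a to Type5b, where 6.61% of 96502 tiles were called higher and 0.279% lower. This H19 tile holds 149761722 and 149761768 but not 149761700, the site in CCGG, so it could not reach 3 sites. It went from 4.71 to 4.26% and was not called (quasi-binomial model, adjusted p = 0.917). Type7 had too few H19 reads for the other comparison, in which 21.3% of 86025 such tiles were called higher and 0.21% lower, those 2 tiles not among them.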

How the data were processed

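Per the labels' protocols, oocyte DNA was digested with MspI, ligated to premethylated adaptors, bisulfite converted, amplified and size-selected. Per the submitters' processing notes, BSMAP 2.89 and mm9 were used; no methylation caller or trimming step is named there. The deposited files list, per CpG site, the count of all and of methylated reads by strand, and the methylated fraction the authors derived from them. Every listed site has at least 3 reads. MspI ends are filled in during library preparation, and such cytosines read as unmethylated unless trimmed; a C-to-T variant of either strain also reads as unmethylated. Another label names embryo stages that contradict the titles and was not used.

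Levels are methylated over all reads, summed over sites with at least 5 reads; libraries entered tests with at least 50 such reads. Follicle classes were compared by exact two-sided permutation, or 100000 resamples where a class held 10 or more libraries, and p-values adjusted by Benjamini-Hochberg. Tiles of 100 bp were fitted with a quasi-binomial model over all stages, its dispersion moderated by limma's squeezeVar and floored at 1, and called where levels differed by 20 points or more with an adjusted p under 0.05. On simulated reads, Type7 against Type1, it called 20, 64, 68 and 86% of tiles changed by 20, 30, 40 and 50 points, of 58522 tiles. Autosomal levels are means over 37657 common tiles; the X measure uses 63 X and 2902 autosomal tiles. Stretches are sites separated by at least 500 bp. Named sites are the most covered of each stretch and, of sites with 5 reads in at least 10 libraries, the 3 with the highest mean; libraries above 10% were named. The site patterns, the sites at 149764673, 149767092 and 149767291 and the Meg3 start were chosen after their values were seen. The members, windows and lists were chosen with earlier results of these data known.

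Replicate numbers do not pair the libraries: deviations of same-numbered libraries had a median r of 0.01 over 84 pairs, against -0.003 over 340 others. The software was limma 3.58.1 in R 4.3.3, with matplotlib 3.10.9, pandas 2.3.3, scipy 1.17.1 and numpy 2.4.6 in Python 3.11.15.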

Additional observations from a re-analysis of the deposited data

Results flagged for a closer look

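A single library stood far from the others of its group in 3 of 7 groups (follicle classes or stages) of 4 to 10 libraries tested for such a gap. The nominal rate of flags by chance is 1 in 20 groups, but it was not measured for these data. It cannot be set against the 3 flags, since stages lie within classes and many Meg3 start levels were 0. At the Meg3 start, 2 of 4 primordial and 6 of 10 secondary libraries were at 0. At H19, Type4 replicate 5 was at 39.4%, against 0 to 14.4% in the other secondary libraries (n = 8). At the Meg3 start, Type2 replicate 3 was at 36.3%, against 0 to 3.16% in the other primordial libraries (n = 4), and Type4 replicate 1 was at 35.3%, against 0 to 15.5% in the other secondary libraries (n = 10). Type2 replicate 3 had 0 methylated reads at the 3 first H19 sites (7 to 8 reads each). Type4 replicate 5 was at 0 at the Meg3 start, with 4 to 7 reads at each of the 7 marked CpGs.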

How the results depend on the processing

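Few reads limit every H19 value: 14 of 31 libraries had under 50. All directions below belong to class differences that passed no test. H19 secondary minus primary reversed to -4.01 and -2.49 points with at least 10 and 20 reads per site and to -7.54 without the libraries of X measure above 0; leaving out single libraries gave -4.01 to 2.12 (reversed without Type3a replicate 2, Type4 replicates 1 and 5 or Type5a replicate 7). H19 antral minus secondary reversed to -3.32 without sites in CCGG, -2.39 without those X libraries, -5.83 with no minimum of reads per library, -4.67 in the first stretch and -2.13 in the other 2, and was -2.15 to 6.62 without single libraries (reversed without Type6 replicate 1 or 2). H19 antral minus primordial was -1.01 without the X libraries, 5.72 with no minimum of reads and 7.43 without Type6 replicate 2. The gap of H19 to the autosomes, antral minus primordial, was -18.9 without the X libraries, -12.4 with no minimum of reads and -1.61 with sites weighted equally, and without single libraries -9.36 and -9.15 (Type6 replicates 1 and 2) to -1.99 and -1.91 (Type6 replicate 3, Type7 replicate 2). The share of variance held by stages was 97.7% for H19 without the X libraries and for the Meg3 start 62.4% with at least 10 reads per site; neither passed. For the Meg3 start, antral minus primordial reversed to 3.51 with at least 20 reads per site and was -8.58 to 3.51 without single libraries (reversed without Type2 replicate 3), and antral minus secondary reversed to 1.01 without the X libraries and was -4.97 to 0.575 without single libraries (reversed without Type4 replicate 1).

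The relation of H19 with the X measure no longer passed with sites weighted equally (r = 0.74) or no minimum of reads (r = 0.64), and had r = 0.79 to 0.94 without single libraries, losing the call without Type5a replicates 4, 6 or 7 or Type6 replicates 1, 2 or 3. Meg3 start and X had r = -0.23 to 0.22 (reversed without Type4 replicate 1 or 4), and Meg3 start and H19 r = -0.81 to 0.10 (reversed without Type4 replicate 5) and 0.0203 with stage means kept. The gap of the Meg3 start to the autosomes kept its direction but not its call without the X libraries (-25.7) and without single libraries (-27.1 to -13.5: Type1 replicate 1, Type2 replicates 1 and 3, Type6 replicates 1 to 3, Type7 replicates 1 and 2).

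With the replicate number as a block, that gap was -19.4 (exact permutation, adjusted p = 0.667). H19 antral minus primordial was 12.0 and antral minus secondary 2.37, and 5 of 30 libraries correlated best with their own number. Tiles called from Type1 to Type7 (10559) became 18496 with 2 sites per tile, 6859 in a fit on the 2 stages and 5369 to 9594 without single libraries (5369, 6532, 5594 and 6409 without Type1 replicates 1 and 3 and Type7 replicates 1 and 2). From Type5a to Type5b (3479) they became 6652 with 2 sites, 2256 with at least 10 reads per site, 208 on the 2 stages, 966 with the block and 992 to 3310 without single libraries (992 and 2230 without Type5b replicates 1 and 3). The causes were not tested. Comparisons among the 3 loci, and levels from sites covered in every stage or on both strands, gave no value. The alternatives with no minimum of reads or by stretch, and all for the Meg3 start, were added after the data were seen.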
